A study of Homo sapiens with 60 samples.

Results

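The genes described are 9 genes of the YAP and TEAD axis, CCN1, CCN2, ANKRD1, AMOTL2, AJUBA, AXL, LATS2, TEAD1 and YAP1, chosen by name from the 60675 gene identifiers of the deposited count table. All 9 were found there and all 9 passed the filter on low counts, which left 17764 genes for testing. The cells were A549, an adherent line derived from a human lung adenocarcinoma, and their messenger RNA was sequenced 24 h after treatment with plant extracts used in East Asian medicine. The 60 libraries form 25 groups. The vehicle group (DMSO) has 3 libraries, and each of 8 extracts was given at 20, 100 and 500 µg/mL. The water extracts were Sibjeondaebo-tang and Palmul-tang, which are multi-herb decoctions. The ethanol extracts were Poria Cocos, Atractylodis Rhizoma, Glycyrrhizae Radix (licorice root), Panax Ginseng, Angelicae Gigantis Radix and Paeoniae Radix. Each group has 3 libraries, except Palmul-tang with 2 per dose and Angelicae and Paeoniae with 1 per dose. Extracts are called by the first word of their names from here on.

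The vehicle is 0.1% DMSO in the sample labels and 2% in the design text. The design text also gives lower, toxicity-based doses for some extracts, while the labels give the same 3 doses for every extract, so the doses printed here are those of the labels. A549 is 1 cell line, and the labels do not say whether replicate libraries stem from separate cultures. The p-values therefore speak to the spread between libraries alone, which may be technical. Totals were 18602480 to 29764332 counts per library, and the members had 158 to 5501 counts in any library. Poria replicate 3 at 20 µg/mL had 27941 genes with counts above 0, against 21653 to 23424 in every other library. The reason for this was not tested. The sample titles name BatchC for every library, the vehicle included. The column names of the deposited counts begin with a code, called the set code here. By it the vehicle libraries stand apart, and Sibjeondaebo and Palmul share a code. So do Poria and Atractylodis, Glycyrrhizae and Ginseng, and Angelicae and Paeoniae.

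YAP1 and its close relative TAZ (gene WWTR1) are coactivators that enter the nucleus when the Hippo kinases are inactive and bind DNA through TEAD factors such as TEAD1. In attached epithelial cells their activity follows cell density, adhesion and the tension of the actin cytoskeleton, and several target genes act back on the pathway. CCN1 and CCN2 encode secreted matricellular proteins, ANKRD1 a nuclear ankyrin-repeat cofactor and AXL a receptor tyrosine kinase, all widely used as readouts of YAP and TEAD. AMOTL2, an angiomotin family scaffold, AJUBA, a LIM-domain scaffold, and LATS2, a kinase that phosphorylates YAP, are both target genes and regulators of the pathway. Many of these genes also answer to other signals, such as serum, stress and TGF-beta.

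TEAD factors bind a core DNA sequence, GGAATG on one strand and CATTCC on the other. To show where it lies next to the members, 250 bases before each RefSeq gene start (GRCh38.p14) were searched on both strands, which was possible for 7 of the 9 members. Of 35116 such windows in the table, 11.89% held at least 1 core, 0.9397% at least 2 and 0.08258% at least 3. The CCN2 window (chr6:131951373-131951622, minus strand) held 3 cores, at 169, 104 and 95 bases before the start. The ANKRD1 window (chr10:90921088-90921337, minus strand) held 2, at 220 and 128 bases. These windows are printed because CCN2 and ANKRD1 are the members with the most cores, read 5′ to 3′ on the strand of the gene with the cores in capitals.
CCN2: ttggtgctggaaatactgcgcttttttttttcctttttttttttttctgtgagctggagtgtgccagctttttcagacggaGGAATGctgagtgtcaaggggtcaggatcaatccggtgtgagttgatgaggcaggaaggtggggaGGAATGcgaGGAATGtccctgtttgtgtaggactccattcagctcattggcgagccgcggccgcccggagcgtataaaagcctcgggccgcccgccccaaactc
ANKRD1: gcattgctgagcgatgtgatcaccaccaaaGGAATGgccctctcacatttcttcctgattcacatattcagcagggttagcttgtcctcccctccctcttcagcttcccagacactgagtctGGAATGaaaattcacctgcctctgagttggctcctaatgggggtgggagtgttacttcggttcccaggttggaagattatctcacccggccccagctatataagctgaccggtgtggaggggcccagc
YAP1 held 1 core, 162 bases before its start. AMOTL2, AJUBA and AXL each have 2 annotated starts, of which 1 had a single core, and the LATS2 window had 0. A match of letters is a description of the window and no evidence of binding in these cells.

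Levels are given as CPM (a gene's counts relative to the library total), scaled between libraries by the TMM method, so each is a share of a library's RNA. In such bulk samples, fewer cells that make a transcript and less transcript per cell cannot be told apart. Per kilobase of exon sequence, the only scale on which genes can be set beside each other, TEAD1 had the highest median level over the 60 libraries, 18.8 CPM per kb, followed by ANKRD1 at 15.9, YAP1 at 14.1 and AMOTL2 at 14.0. AXL at 9.68 and AJUBA at 9.06 CPM per kb were lower, and CCN2 at 4.67, CCN1 at 4.52 and LATS2 at 3.69 lowest. Both partners of the YAP and TEAD complex were thus among the more abundant members, as was the readout ANKRD1. The readouts CCN1 and CCN2 were among the less abundant.

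**Figure D1:**
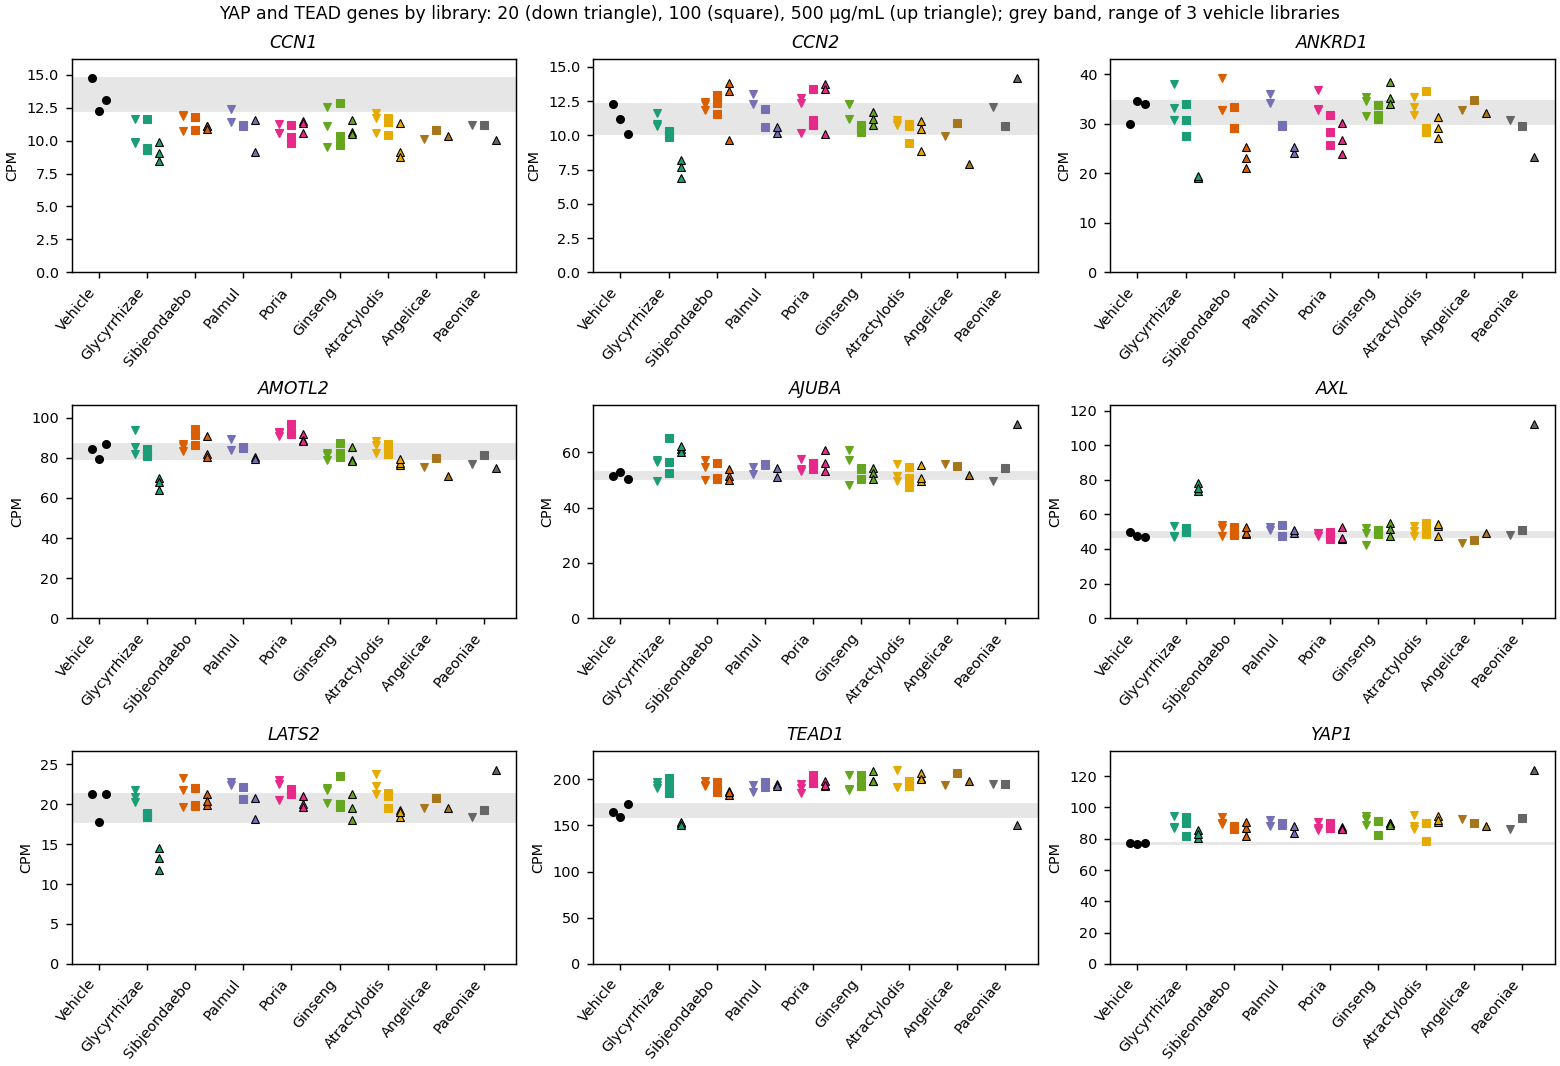
Level of each of the 9 genes in every library, in CPM on a linear axis from 0, with 1 point per library and 1 column of points per dose. The grey band spans the 3 vehicle libraries, the highest Paeoniae point for AXL is 112 CPM, and the Glycyrrhizae points at 500 µg/mL lie below every other replicated group for CCN2, ANKRD1, AMOTL2, LATS2 and TEAD1.

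The first comparison asks whether a member's level at 500 µg/mL of an extract differed from its level at 20 µg/mL, which sets aside whatever the vehicle libraries have of their own. ANKRD1 was the member that fell in the most extracts, 4 of 6, and Glycyrrhizae was the extract in which the most members changed, 6 of 9. At 500 µg/mL of Glycyrrhizae, CCN2, ANKRD1, AMOTL2, LATS2 and TEAD1 were lower than at 20 µg/mL and AXL was higher, while CCN1, AJUBA and YAP1 did not pass the test. Of all 17764 genes tested, 37.0% were called in Glycyrrhizae (edgeR adjusted p under 0.05), so a change there is common among genes of any kind. The share called lower was 18.4% and the share called higher 18.5%.

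ANKRD1 (ENSG00000148677, chromosome 10, 90912096 to 90921276 of GRCh38) is a gene of the ankyrin-repeat family known from stretched and injured muscle. With 20 µg/mL of Glycyrrhizae its level was 38.0, 33.1 and 30.9 CPM in replicates 1 to 3, and with 500 µg/mL it was 19.2, 19.0 and 19.4 CPM. All 3 libraries at 500 µg/mL lay below all libraries of the other groups, and the log2 change was -0.82 ± 0.096 (SE; edgeR adjusted p = 1.38e-09, n = 3 and 3). In the 3 vehicle libraries ANKRD1 was at 29.97, 34.6 and 34.0 CPM.

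The fall of ANKRD1 with dose was also called for both multi-herb decoctions and for Poria. Sibjeondaebo gave 39.2, 32.8 and 32.8 CPM at 20 µg/mL and 25.4, 21.0 and 23.1 CPM at 500 µg/mL, a log2 change of -0.59 ± 0.095 (edgeR adjusted p = 5.2e-05), with no overlap between the groups. It was the only member called in Sibjeondaebo, where 3.78% of all genes were called and 1.44% were called lower. Palmul gave 36.1 and 34.2 CPM at 20 µg/mL and 24.2 and 25.3 CPM at 500 µg/mL, again without overlap, a log2 change of -0.51 ± 0.12 (edgeR adjusted p = 0.00861, n = 2 and 2).

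In Palmul, too, ANKRD1 was the only member called, and 2.08% of all genes were (0.794% lower). The Palmul call was lost without replicate 2 at 500 µg/mL (edgeR adjusted p = 0.111), without replicate 3 at 500 µg/mL (0.0763) and without replicate 2 at 20 µg/mL (0.146), the single library left being taken to vary as other groups do. Poria gave 36.9, 33.1 and 32.8 CPM at 20 µg/mL and 30.2, 26.8 and 24.0 CPM at 500 µg/mL, a log2 change of -0.35 ± 0.094 (edgeR adjusted p = 0.0418).

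These Poria groups did not overlap either, and ANKRD1 was the only member called among the 1.55% of all genes called there (0.484% lower). Its p lay next to the threshold. It was lost with library totals in place of TMM (edgeR adjusted p = 0.053), in a fit of the compared groups alone (0.0952), and without any 1 of replicate 1 (0.224), 2 (0.0695) or 3 (0.0664) at 20 µg/mL or replicate 2 (0.13) or 3 (0.257) at 500 µg/mL.

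Ginseng and Atractylodis had no member called between these doses. ANKRD1 with Ginseng was at 35.4, 31.6 and 34.5 CPM at 20 µg/mL and 38.4, 35.3 and 34.1 CPM at 500 µg/mL, a log2 difference of 0.09 ± 0.092 (edgeR adjusted p = 0.853). The Ginseng groups overlap. By edgeR 0 of the 9 members passed in Ginseng, 0 had an unadjusted p under 0.05 and 0 passed with DESeq2, where 1.20% of all genes were called by edgeR. With Atractylodis ANKRD1 was at 35.4, 33.5 and 31.8 CPM at 20 µg/mL and 31.4, 27.2 and 29.3 CPM at 500 µg/mL, a log2 difference of -0.20 ± 0.092 (edgeR adjusted p = 0.68).

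The Atractylodis libraries at 500 µg/mL were all below those at 20 µg/mL, but the difference did not pass the test across all genes. In that extract 0 of 9 members passed with edgeR and 0 with DESeq2, 4 had an unadjusted p under 0.05 (LATS2, AMOTL2, CCN1 and ANKRD1, all with lower estimates at 500 µg/mL), and 0.208% of all genes were called. For LATS2 the difference was -0.25 ± 0.073 (edgeR adjusted p = 0.23) and for AMOTL2 -0.14 ± 0.047 (0.329). With replicate number within each set code as a block in the fit, both passed (edgeR adjusted p = 0.032 and 0.0247).

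Ordered by their mean, the 19 replicated groups run for ANKRD1 from Glycyrrhizae at 500 µg/mL (19.2 CPM) through Sibjeondaebo (23.2), Palmul (24.7) and Poria (26.98) at 500 µg/mL up to Ginseng at 500 µg/mL (35.9). Only the step from the first to the second group was without overlap of libraries, so the groups above it form a continuous series. Among the 17 libraries of the 6 replicated extracts, ANKRD1 spanned 30.9 to 39.2 CPM at 20 µg/mL (median 33.5), 25.8 to 36.7 at 100 µg/mL (median 29.8) and 19.0 to 38.4 at 500 µg/mL (median 25.4).

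**Figure D2:**
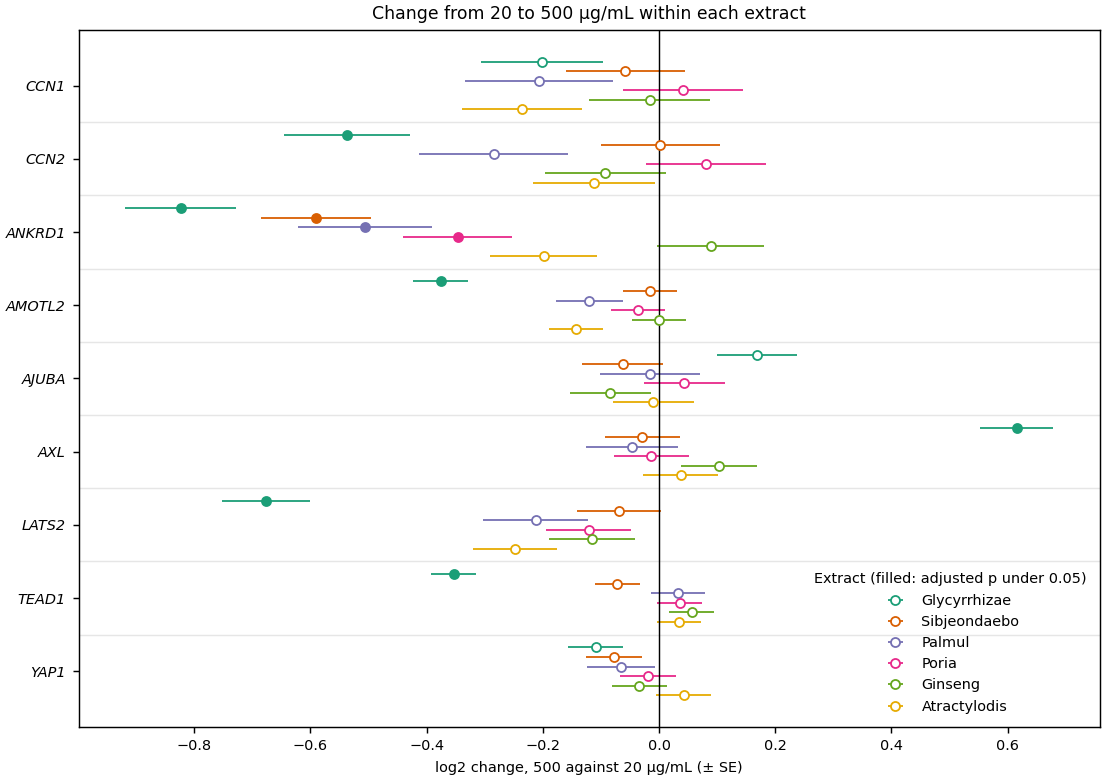
Log2 change from 20 to 500 µg/mL for the 9 genes in the 6 replicated extracts, with bars of 1 SE and filled points where the edgeR adjusted p was under 0.05. ANKRD1 has filled points in 4 extracts, from -0.82 to -0.35, and the other filled points are all from Glycyrrhizae.

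The remaining members are described by role, beginning with the secreted matricellular proteins. CCN2 (ENSG00000118523, chromosome 6, 131948176 to 131951373), known as connective tissue growth factor, was at 10.8, 10.7 and 11.6 CPM with 20 µg/mL of Glycyrrhizae and 8.23, 6.89 and 7.67 CPM with 500 µg/mL. The groups did not overlap, and the log2 change was -0.54 ± 0.11 (edgeR adjusted p = 7.88e-05). In the other 5 replicated extracts CCN2 did not pass, and its 14 libraries at 500 µg/mL spanned 8.84 to 13.8 CPM (median 10.9), against 10.1 to 12.3 CPM in the vehicle. Within Sibjeondaebo at 500 µg/mL the replicates lay far apart, at 13.8, 9.64 and 13.2 CPM.

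CCN1 (ENSG00000142871, chromosome 1, 85580761 to 85583962), the matricellular protein also called CYR61, gave another picture. It was at 9.78, 9.93 and 11.7 CPM with 20 µg/mL of Glycyrrhizae and at 9.86, 9.07 and 8.42 CPM with 500 µg/mL, which overlap. The log2 difference was -0.20 ± 0.10 (edgeR adjusted p = 0.133), and no extract passed for CCN1 between these doses.

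Of the scaffolds and the kinase of the pathway, AMOTL2 and LATS2 fell with Glycyrrhizae. AMOTL2 (ENSG00000114019, chromosome 3, 134355874 to 134375479) went from 94.2, 82.1 and 85.5 CPM at 20 µg/mL to 69.8, 67.8 and 64.1 CPM at 500 µg/mL. LATS2 (ENSG00000150457, chromosome 13, 20973032 to 21061547) went from 21.0, 20.3 and 21.8 CPM to 13.3, 14.5 and 11.8 CPM. For both genes these 3 libraries were the lowest of all 60, with log2 changes of -0.38 ± 0.047 for AMOTL2 (edgeR adjusted p = 7.26e-09) and -0.68 ± 0.076 for LATS2 (5.41e-10).

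In the fit without a replicate block AMOTL2 and LATS2 did not pass in the other 5 extracts, although the estimates were below 0 in 6 of 6 for LATS2. For AMOTL2 they ranged from -0.38 with Glycyrrhizae to about no difference with Ginseng. AJUBA (ENSG00000129474, chromosome 14, 22971174 to 22982642) had higher values, 56.4, 57.3 and 49.8 CPM at 20 µg/mL and 61.1, 60.02 and 62.3 CPM at 500 µg/mL of Glycyrrhizae. Although these groups did not overlap, the log2 difference of 0.17 ± 0.069 missed the threshold narrowly (edgeR adjusted p = 0.051). It passed without replicate 2 at 20 µg/mL (0.0359) and replicate 1 at 20 µg/mL (0.0498), without the filter on low counts (0.0379) and in a fit of the compared groups alone (0.049). It also passed with replicate number as a block in the fit (0.0281, and 0.0116 within set codes). AJUBA did not pass with RLE factors, library totals or DESeq2, nor when any other single library of these groups was left out. At 100 µg/mL of Glycyrrhizae it was at 56.6, 65.1 and 52.6 CPM, a range that overlaps both other doses.

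AXL (ENSG00000167601, chromosome 19, 41219203 to 41261766), the receptor, was the only member called higher. With Glycyrrhizae it was at 53.6, 47.4 and 47.0 CPM at 20 µg/mL, at 50.2, 52.1 and 49.7 CPM at 100 µg/mL, and at 77.9, 73.6 and 75.0 CPM at 500 µg/mL. The log2 change from 20 to 500 µg/mL was 0.62 ± 0.063 (edgeR adjusted p = 4.22e-11). In the other 5 replicated extracts AXL had 46.1 to 55.1 CPM at 500 µg/mL over 14 libraries and 42.4 to 53.7 CPM at 20 µg/mL, and 0 of those 5 comparisons passed with edgeR or DESeq2. AXL thus went the opposite way to the other members called with Glycyrrhizae.

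Of the 2 partners that form the transcription complex, TEAD1 fell and YAP1 did not pass. TEAD1 (ENSG00000187079, chromosome 11, 12674591 to 12944483) was at 197, 194 and 190 CPM with 20 µg/mL of Glycyrrhizae, 185, 202 and 193 CPM with 100 µg/mL and 152, 153 and 150 CPM with 500 µg/mL. The change was -0.35 ± 0.038 on the log2 scale (edgeR adjusted p = 2.43e-10), with no overlap. YAP1 (ENSG00000137693, chromosome 11, 102110461 to 102233423) was at 87.3, 94.4 and 87.0 CPM and then 80.4, 85.3 and 83.3 CPM, also without overlap, but the difference of -0.11 ± 0.048 did not pass (edgeR adjusted p = 0.0687). The difference passed narrowly with a replicate block within set codes (edgeR adjusted p = 0.0494).

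Exons of CCN2, AXL and YAP1 overlap antisense genes (AL133346.1, AC011510.1 and AP000942.2). The strand setting of the counting is not given in the sources used here, so whether reads of each pair were kept apart is not known. AMOTL2 shares exon sequence with the pseudogene RPL39P5 and AJUBA with the protein-coding gene AL132780.3 on the same strand, so counts of these members could have been split between the genes.

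At the middle dose no member had moved past the threshold. Over the 54 comparisons of a member between 20 and 100 µg/mL, 0 passed with edgeR and 0 with DESeq2, 4 had an unadjusted p under 0.05, and of all genes 0.788% were called in Glycyrrhizae, 0.0788% in Sibjeondaebo and 0% in the other 4. Of those 4, 3 were ANKRD1, with log2 differences of -0.26 ± 0.092 in Poria (edgeR adjusted p = 1), -0.24 ± 0.11 in Palmul (1) and -0.19 ± 0.092 in Sibjeondaebo (0.859), and the other was LATS2 in Glycyrrhizae at -0.17 ± 0.073 (0.481). The ANKRD1 estimates were below 0 in 6 of 6 extracts, from -0.26 to -0.07, as were those of CCN1 and LATS2. With Glycyrrhizae ANKRD1 was at 34.1, 27.5 and 30.9 CPM at 100 µg/mL, which overlaps the range at 20 µg/mL, and AXL differed by 0.04 ± 0.064 on the log2 scale. For LATS2 (18.9, 18.4 and 18.6 CPM at 100 µg/mL) and CCN2 (9.89, 10.04 and 10.3 CPM) all 3 libraries lay below those at 20 µg/mL, and CCN2 differed by -0.13 ± 0.10 (edgeR adjusted p = 0.889). The members called with Glycyrrhizae at 500 µg/mL thus did not pass at 100 µg/mL. How many of all genes separate from 20 µg/mL as LATS2 and CCN2 do was not counted.

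Whether the change from 20 to 500 µg/mL differed between extracts was tested directly. Glycyrrhizae and Ginseng carry the same set code, and 6 members differed between them, among 21.0% of all genes. The difference in log2 change (Glycyrrhizae minus Ginseng) was -0.91 ± 0.13 for ANKRD1 (edgeR adjusted p = 5.9e-07), -0.56 ± 0.11 for LATS2 (6.39e-05), -0.41 ± 0.054 for TEAD1 (8.3e-08), -0.38 ± 0.066 for AMOTL2 (2.11e-05) and 0.51 ± 0.090 for AXL (2.19e-05). For CCN2 it was -0.44 ± 0.15 (0.0284), a call lost without Glycyrrhizae replicate 2 at 500 µg/mL (0.0901) or replicate 3 at 20 µg/mL (0.0708), or without Ginseng replicate 1 at 500 (0.0649) or 20 µg/mL (0.0702). AJUBA, with a difference of 0.25 ± 0.098, did not pass (0.0625), but did without Glycyrrhizae replicate 2 (0.0437) or Ginseng replicate 3 (0.00607) at 20 µg/mL, and without the filter (0.0359). The AJUBA difference also passed with replicate number as a block in the fit (0.0351, and 0.0156 within set codes).

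Set against the mean change of the other 5 replicated extracts, 7 members differed in Glycyrrhizae, among 32.4% of all genes. AXL was 0.60 ± 0.070 higher on the log2 scale (edgeR adjusted p = 1.5e-09), LATS2 -0.52 ± 0.083 (1.95e-06), ANKRD1 -0.51 ± 0.11 (0.000132), CCN2 -0.46 ± 0.12 (0.00218), TEAD1 -0.37 ± 0.042 (1.24e-09) and AMOTL2 -0.31 ± 0.052 (3.71e-06). AJUBA was 0.19 ± 0.076 higher (0.0468), a call that did not hold with library totals (0.169), with DESeq2 (0.055) or in 19 of 34 fits with 1 library left out. The difference for ANKRD1 is smaller here than against Ginseng, and ANKRD1 is also the member that fell in 3 of the 5 extracts of that mean.

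No member passed in the other replicated pairs that share a set code, and Angelicae and Paeoniae, with 1 library per dose, had no test. Between the decoctions Sibjeondaebo and Palmul 0 members passed with edgeR, 0 with DESeq2 and 0 at an unadjusted p under 0.05, where 0% of all genes were called. For ANKRD1 the fall differed by -0.08 ± 0.15 on the log2 scale between these decoctions (edgeR adjusted p = 0.968). Between Poria and Atractylodis the members gave 0 calls with edgeR, 0 with DESeq2 and 0 at an unadjusted p under 0.05, where 0.0732% of all genes were called. ANKRD1, called in Poria and not in Atractylodis, differed by -0.15 ± 0.13 (edgeR adjusted p = 0.853), so its change is not shown to differ between them.

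The rest of the pathway was read from lists written by hand. Their counts with Glycyrrhizae stand beside 37.0% of all genes called, 18.5% higher and 18.4% lower. With Glycyrrhizae the 9 members had a median log2 change of -0.35, against 0.0016 over all genes tested. Of 6 tested factors beside YAP1 and TEAD1, 3 were lower and 2 higher. WWTR1, the gene of TAZ, went from 182, 163 and 169 CPM at 20 µg/mL to 109, 103 and 94.9 CPM at 500 µg/mL, a log2 change of -0.74 ± 0.051 (edgeR adjusted p = 2.32e-16).

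WWTR1 libraries did not overlap between the doses. VGLL3 and VGLL4, TEAD cofactors of the vestigial-like family, changed by -0.84 ± 0.10 (edgeR adjusted p = 4.84e-09) and -0.36 ± 0.050 (8.24e-08). The other TEAD genes did not follow TEAD1: TEAD3 and TEAD4, named after their values were seen, were higher by 0.42 ± 0.11 (0.00263) and 0.21 ± 0.058 (0.00372), and TEAD2 differed by 0.09 ± 0.062 (0.287).

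Of 16 other YAP and TAZ target genes, 8 were lower and 2 higher with Glycyrrhizae, with a median of -0.16. NUAK2, a kinase of the AMPK family, changed by -0.73 ± 0.069 (edgeR adjusted p = 5.47e-12) and CRIM1, a transmembrane protein that binds BMPs, by -0.52 ± 0.049 (6.14e-12). GADD45A, which is also a p53 and stress target, was higher, at 18.6, 19.0 and 18.3 CPM at 20 µg/mL and 42.0, 39.2 and 43.8 CPM at 500 µg/mL, a log2 change of 1.16 ± 0.068 (7.13e-19). The list therefore moved in both directions, with more of its genes lower.

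Of the 17 Hippo kinases and upstream regulators that are not members, 4 were lower and 5 higher, with a median of 0.0081. WWC1 (KIBRA) changed by -0.70 ± 0.044 (edgeR adjusted p = 1.65e-17), the AJUBA relative LIMD1 by -0.40 ± 0.066 (2.55e-06) and the kinase TAOK2 by -0.34 ± 0.059 (7.01e-06). The 5 called higher, named after their values were seen, were STK4, LATS1, MOB1A, MOB1B and MAP4K4. Of these, STK4 was higher by 0.25 ± 0.053 (0.000154) and LATS1, unlike LATS2, by 0.22 ± 0.056 (0.00174). Actin and SRF target genes were split, 5 lower and 4 higher of 15 tested. The tropomyosin gene TPM1 changed by -0.78 ± 0.032 (3.77e-24), the vinculin gene VCL by -0.45 ± 0.036 (1.43e-14), and FHL1, a LIM-domain protein, by 0.66 ± 0.069 (9.1e-11).

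Of 12 AP-1 and immediate-early genes 7 were higher and 2 lower, with a median of 0.76, beside 18.5% higher and 18.4% lower among all genes. ATF3, a stress-induced transcription factor, was at 0.907, 0.811 and 0.633 CPM at 20 µg/mL and 5.76, 4.97 and 6.07 CPM at 500 µg/mL of Glycyrrhizae. The log2 changes were 2.84 ± 0.19 for ATF3 (edgeR adjusted p = 5.8e-17), 1.37 ± 0.092 for IER3 (7.28e-17) and 1.25 ± 0.071 for JUN (2.46e-19). Of 10 TGF-beta response genes 5 were higher and 3 lower, among them TGFBI at 0.38 ± 0.039 (7.16e-11) and SNAI2, a repressor of epithelial genes, at -0.82 ± 0.099 (3.93e-09).

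In the other 5 extracts fewer genes of these lists were called than the 50 with Glycyrrhizae. The counts were 6 in Sibjeondaebo, 3 in Palmul, 4 in Poria, 1 in Ginseng and 2 in Atractylodis. Beside them stand 3.78%, 2.08%, 1.55%, 1.20% and 0.208% of all genes, in that order. By list, the tested genes beside the members were 17 Hippo regulators, 6 factors and 16 other targets. There were also 15 actin and SRF targets, 12 AP-1 and immediate-early genes and 10 TGF-beta response genes. PTPN14 stands in both the Hippo and the target list and enters the counts above once. Sibjeondaebo had 6 genes of these lists called, of which NT5E, the ecto-5'-nucleotidase, changed most at -0.45 ± 0.075 (edgeR adjusted p = 0.000109), with DOCK5 at -0.22 ± 0.043 (0.00133), MYOF at -0.17 ± 0.039 (0.00668) and LTBP2 at -0.30 ± 0.089 (0.0434) also lower. TEAD4 was higher there, by 0.29 ± 0.059 (0.00148). TPM1 was lower by -0.17 ± 0.032 in Sibjeondaebo (0.000457), -0.26 ± 0.039 in Palmul (3.14e-05) and -0.17 ± 0.032 in Poria (0.000703).

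NT5E was also lower in Palmul, at -0.35 ± 0.093 (edgeR adjusted p = 0.0327), where the collagen gene COL4A1 was 0.37 ± 0.082 higher (0.00653). In Poria CCDC80, a matrix protein gene, changed by -0.26 ± 0.044 (0.000251) and SAV1, the adaptor of the Hippo kinases, by 0.22 ± 0.059 (0.0397). In Atractylodis TGFBI was 0.18 ± 0.039 higher (0.0209). WWTR1, lower with Glycyrrhizae, did not pass in any of these 5 extracts.

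Marker genes show what moved beside these changes. Of 9 epithelial and A549 markers, 7 were lower and 1 higher with Glycyrrhizae, and their summed level was 11597 to 11860 CPM at 500 µg/mL, 15269 to 15519 at 20 µg/mL and 16251 to 16800 in the vehicle. SFTPB, the surfactant gene of type II cells, was near 0 in every library, at 0.160 to 0.959 CPM, and EPCAM was present at 14.5 to 21.6 CPM. The 6 leukocyte markers summed to 65.0 to 79.1 CPM at 500 µg/mL and 18.2 to 25.5 CPM at 20 µg/mL of Glycyrrhizae, mostly from CD68, a lysosomal gene, while PTPRC was at 0 in 53 and CD3E at 0 in 54 of the 60 libraries. The endothelial genes CDH5, VWF and TIE1 were at 0 in 50, 52 and 57 libraries, and the fibroblast gene COL1A2 did not pass 0.169 CPM. The 8 fibroblast markers summed to 11.6 to 13.1 CPM at 500 µg/mL and 16.2 to 18.2 at 20 µg/mL, and the 6 endothelial ones, nearly all from KDR, to 12.6 to 13.0001 and 21.2 to 22.1 CPM. The part of these shifts in the members' changes was not tested.

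Against the vehicle, TEAD1 and YAP1 were called higher in 6 of 6 extracts already at 20 µg/mL, and CCN1 lower in 3 of 6. The 6 comparisons share the 3 vehicle libraries, which carry their own set code, so the extracts' presence and anything particular to the vehicle set cannot be told apart. TEAD1 was at 164.5, 158.9 and 172.9 CPM in the vehicle and at 185 to 210 CPM (median 192) in the 17 libraries at 20 µg/mL, all 17 above every vehicle library. The log2 change was 0.20 to 0.26 and passed in 6 of 6 extracts (edgeR adjusted p from 3.99e-06 to 0.00123). Of all genes 28.8% were called in Glycyrrhizae and in Ginseng, 24.1% in Sibjeondaebo, 23.7% in Atractylodis, 19.5% in Poria and 15.4% in Palmul. The members called were 3 of 9 in Glycyrrhizae and in Ginseng, 4 in Poria and 2 in each of the others. Outside Poria these counts lie near the share of all genes. How many of all genes have every library at 20 µg/mL above the vehicle was not counted.

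YAP1 was at 77.3, 76.5 and 77.5 CPM in the vehicle and 85.6 to 95.1 CPM (median 89.6) in the same 17 libraries. Again all 17 lay above the vehicle, and the log2 change of 0.19 to 0.26 passed in 6 of 6 extracts (edgeR adjusted p from 8.22e-05 to 0.00456), though in Palmul not without its replicate 2 at 20 µg/mL (0.0649). For CCN1 the vehicle libraries had 14.7, 12.2 and 13.1 CPM, and 15 of the 17 libraries at 20 µg/mL lay below all of them, at 9.53 to 12.5 CPM over all 17 (median 11.3). CCN1 passed in Glycyrrhizae at -0.35 ± 0.10 (edgeR adjusted p = 0.00808), Poria at -0.30 ± 0.10 (0.0315) and Ginseng at -0.28 ± 0.10 (0.0397).

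Those 3 calls of CCN1 rest on vehicle replicate 1, its highest library. Without it the edgeR adjusted p was 0.0849 in Glycyrrhizae, 0.201 in Poria and 0.234 in Ginseng. The Ginseng call was also lost without vehicle replicate 3 (0.0571) or Ginseng replicate 1 (0.0681) or 2 (0.289), with DESeq2 (0.0632) and with only the compared groups (0.1), and the Poria call without Poria replicate 1 (0.0951) or 3 (0.0808) and with library totals (0.0632). AMOTL2 was called higher in 1 of 6 extracts, Poria, at 92.4, 90.8 and 92.7 CPM against 84.3, 79.7 and 87.1 in the vehicle (0.14 ± 0.047, edgeR adjusted p = 0.0332). That call was lost without the filter (0.101), with only the compared groups (0.104), and without vehicle replicate 1 (0.0675) or 2 (0.201) or any 1 Poria library (0.0507 to 0.0875). CCN2, ANKRD1, AJUBA, AXL and LATS2 did not pass in any extract at 20 µg/mL, although AJUBA in Ginseng did without Ginseng replicate 3 (0.0356).

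At 500 µg/mL against the vehicle, Glycyrrhizae had the most members called, with 6 lower and 2 higher of 9, where 46.8% of all genes were called (23.3% higher and 23.5% lower). AXL was 0.65 ± 0.064 higher (edgeR adjusted p = 1.49e-11) and AJUBA 0.24 ± 0.070 higher (0.00349). ANKRD1 changed by -0.78 ± 0.098 (8.09e-09), LATS2 by -0.61 ± 0.078 (1.04e-08), CCN2 by -0.56 ± 0.11 (4.36e-05), CCN1 by -0.55 ± 0.10 (2.4e-05) and AMOTL2 by -0.32 ± 0.047 (3.38e-07).

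TEAD1, higher than the vehicle in the other 5 extracts at 500 µg/mL, was lower with Glycyrrhizae by -0.12 ± 0.039 (edgeR adjusted p = 0.00755). This call did not hold with library totals (0.134), without the filter (0.159), with only the compared groups (0.0603) or without vehicle replicate 3 (0.0777). YAP1 with Glycyrrhizae was 0.11 ± 0.049 above the vehicle and missed the threshold (0.0681, or 0.0492 without Glycyrrhizae replicate 1), and it passed in the other 5 extracts. For YAP1 in Sibjeondaebo, Palmul and Poria, and for TEAD1 in Sibjeondaebo, the calls at 500 µg/mL were lost with library totals (edgeR adjusted p = 0.13, 0.121, 0.0601 and 0.057). The YAP1 call was also lost in Sibjeondaebo without vehicle replicate 2 (0.0588) or Sibjeondaebo replicate 3 (0.115), and in Palmul without vehicle replicate 1 (0.0595) or 2 (0.0762) or Palmul replicate 3 (0.274). With only the compared groups, YAP1 in Sibjeondaebo (0.089) and Palmul (0.0562) and TEAD1 in Sibjeondaebo (0.0792) did not pass, nor did YAP1 in Palmul without the filter (0.0666).

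ANKRD1 was lower than the vehicle at 500 µg/mL in the same 4 extracts as against 20 µg/mL, with Sibjeondaebo at -0.51 ± 0.096 (edgeR adjusted p = 0.000258), Palmul at -0.41 ± 0.11 (0.00457) and Poria at -0.29 ± 0.096 (0.0329). The Palmul call was lost without replicate 2 at 500 µg/mL (0.0558). The Poria call was lost with library totals (0.0906) and without vehicle replicate 2 (0.146) or 3 (0.0906) or Poria replicate 2 (0.0857) or 3 (0.205). CCN1 was lower than the vehicle in 4 of 6 extracts, and all 17 of its libraries at 500 µg/mL, 8.42 to 11.6 CPM, lay below the 3 vehicle libraries. How many of all genes lie so was not counted. Of all genes 15.2% were called at this dose in Sibjeondaebo, 16.3% in Poria, 22.2% in Palmul, 26.1% in Atractylodis and 28.9% in Ginseng. Of the 4 CCN1 calls, those in Ginseng and Palmul were lost without vehicle replicate 1 (edgeR adjusted p = 0.188 and 0.108). The Ginseng call was also lost without its replicate 1 (0.0771) or 2 (0.0956) at 500 µg/mL, and the Palmul call without its replicate 3 (0.397).

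**Figure D3:**
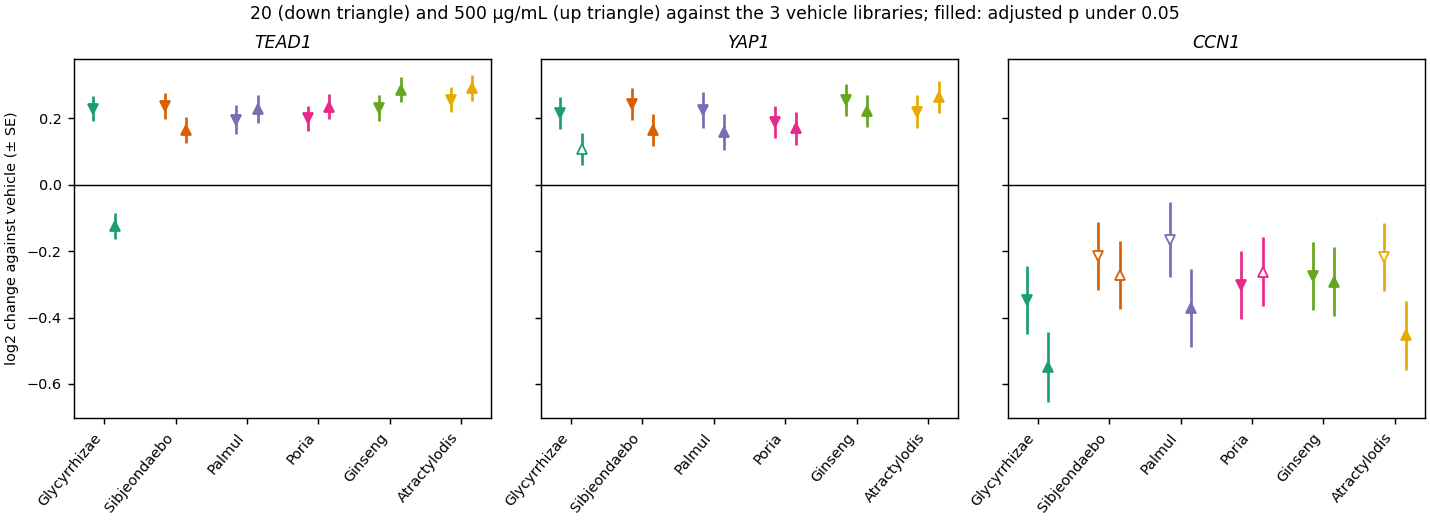
Log2 change against the 3 vehicle libraries for TEAD1, YAP1 and CCN1 at 20 and 500 µg/mL of the 6 replicated extracts, with bars of 1 SE and filled points where the edgeR adjusted p was under 0.05. TEAD1 and YAP1 points lie above 0 except TEAD1 at 500 µg/mL of Glycyrrhizae (-0.12), and CCN1 points all lie below 0.

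Angelicae and Paeoniae have 1 library per dose, so their values have no replicate check and no test, and intervals cover counting error only. The Paeoniae library at 500 µg/mL was the highest of all 60 for AXL, AJUBA, YAP1, LATS2 and CCN2. AXL was at 47.9, 51.2 and 112 CPM with 20, 100 and 500 µg/mL of Paeoniae, a log2 ratio of CPM + 1 between 500 and 20 µg/mL of 1.21. The 95% counting interval of the plain CPM ratio, from the exact binomial interval of the pair of counts, was 1.12 to 1.34 on the same scale. It was the only member past 1.5-fold, among 19.3% of all genes in that pair of libraries.

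YAP1 with Paeoniae was at 85.9, 93.1 and 124 CPM (log2 ratio 0.52, 0.44 to 0.62), AJUBA at 49.7, 54.4 and 70.2 CPM (0.49, 0.38 to 0.62) and LATS2 at 18.4, 19.3 and 24.3 CPM (0.38, 0.20 to 0.60). TEAD1 was at 195, 195 and 150 CPM (-0.37, -0.44 to -0.30) and ANKRD1 at 30.9, 29.6 and 23.4 CPM (-0.39, -0.58 to -0.22). In these libraries AXL was high and ANKRD1 and TEAD1 were low at 500 µg/mL, as with Glycyrrhizae, whereas LATS2 lay on the other side, high with Paeoniae and low with Glycyrrhizae.

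CCN2 was at 12.1, 10.7 and 14.2 CPM with Paeoniae (0.21, -0.02 to 0.48), and the intervals of CCN1 and AMOTL2 also held 0. The epithelial marker sum in this library was 11554 CPM against 14458 at 20 µg/mL, and the leukocyte marker sum 58.2 against 30.1 CPM. Their part in the members' values was not tested. With Angelicae 0 of 9 members passed 1.5-fold, and 0.771% of all genes did. Its largest difference was in CCN2, at 9.97, 10.9 and 7.91 CPM (-0.30, -0.62 to -0.05), followed by AXL at 43.7, 45.2 and 49.3 CPM (0.17, 0.05 to 0.30).

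**Figure D4:**
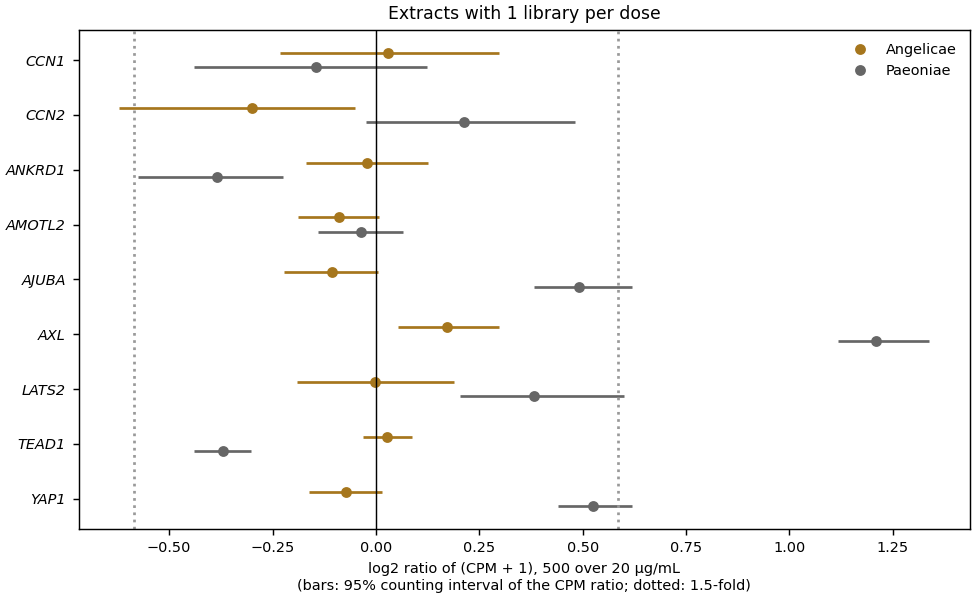
Log2 ratio of CPM + 1 between the single libraries at 500 and 20 µg/mL for Angelicae and Paeoniae, with bars of the 95% counting interval of the CPM ratio and dotted lines at 1.5-fold. AXL with Paeoniae (1.21) is the only point outside the dotted lines.

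Across the 25 group means of log2 CPM the members did not move as one. Of their 36 pairs, 23 had a Pearson r above 0 and 13 below, from -0.81 (AXL and TEAD1) to 0.79 (AJUBA and AXL), with a median of 0.17. CCN2 and LATS2 had an r of 0.74, which was 0.55 without the 3 Glycyrrhizae groups. AXL and YAP1 had an r of 0.67, and 0.85 without them. Spearman's rho was much nearer to 0 for the pairs with AXL, at -0.22 with TEAD1, -0.012 with AJUBA and 0.12 with YAP1, and it was 0.59 for CCN2 and LATS2. These values describe 25 points that share libraries between genes, of which single groups such as Paeoniae at 500 µg/mL lie far out.

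Among 10776 genes whose mean level reached 5 CPM, those most like AXL across the groups included LRP1, an endocytic receptor (Pearson r 0.99), and the integrin gene ITGB4 (0.98). LATS2 was most like KLHDC7A (0.94), HOXB13 (0.90) and MMP24 (0.90). TEAD1 was most like LARP4 (0.95), B4GALT5 (0.94) and PSMD1 (0.94), and YAP1 most like REEP3 (0.95), PJA2 (0.95) and NORAD (0.95). The likeness was lower for the other members, with AJUBA nearest to SEC61A1 (0.90), C1orf43 (0.90) and AKR1A1 (0.90) and AMOTL2 to the talin gene TLN1 (0.87), FASN (0.84) and PDHB (0.82). CCN1 was nearest to MFGE8 (0.86), CYTH2 (0.84) and CLCF1 (0.84), ANKRD1 to HPGD (0.85), TRAFD1 (0.85) and ALDH1A1 (0.84), and CCN2 to CCDC107 (0.82), RHOB (0.81) and ERBB2 (0.81). Over the 27 nearest genes the median was 0.90 by Pearson r and 0.72 by Spearman's rho, with 0.58 to 0.66 by rho for the TEAD1 neighbours. Without the 3 Glycyrrhizae groups HOXB13 and MMP24 ranked 23 and 52 for LATS2, and B4GALT5 and PSMD1 45 and 61 for TEAD1. LRP1 still ranked 1 for AXL. None of the genes named here is itself a member.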

How the data were processed

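The authors deposited RSEM expected counts per gene, of which the 60 columns of these samples were used and 210 other columns were not. Of the values above 0, 76.0% were whole within 1e-09, and all were rounded. Per the submitters' processing notes, the tools were FastQC 0.11.9, Trim Galore 0.6.5, STAR 2.7.3a and RSEM 1.3.3 on GRCh38. The library kit marks strand, per the labels' protocols, and the sources used here do not give the annotation release. The positive control of the design text was not analysed here. Symbols and positions came from GENCODE 29 and a gene name table (57055 of 60675 identifiers), and promoter windows from RefSeq.

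Genes were filtered with filterByExpr and scaled by TMM in edgeR 4.0.16 (R 4.3.3). All 60 libraries entered 1 quasi-likelihood fit, a mean for each group (35 residual degrees of freedom). Its dispersion followed a trend with the level of the gene, and a quasi-likelihood dispersion was added per gene. As a summary, the common dispersion equals a coefficient of variation of 5.586%. P-values were adjusted by Benjamini-Hochberg over all 17764 genes, at 0.05. The SE of a change is its size over the root of its F statistic. Alternatives were RLE factors, library totals, DESeq2 1.42.0, no filter, the compared groups alone, each library left out and blocks of replicate number. The fit was tested on simulated data. Replicate pairs differed by more than sampling noise (chi-square per degree of freedom 2.719 to 40.32 over 51 pairs). Single libraries were compared by the log2 ratio of CPM plus 1.

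The members and gene lists were chosen with earlier results of these data known. Named in the text are the 9 members, from each list the 3 called genes of lowest adjusted p, and the 3 genes with the highest Pearson r with each member. Other list genes are marked in the text as named after their values were seen. Values of 1 list gene that this rule names are not reported here, though the gene is in the list counts.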

Additional observations from a re-analysis of the deposited data

Results flagged for a closer look

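The change from 20 to 500 µg/mL differed between Glycyrrhizae and Ginseng, by a test of the difference itself (edgeR, adjusted over all genes), for ANKRD1 (-0.91 on the log2 scale), LATS2 (-0.56), CCN2 (-0.44), TEAD1 (-0.41), AMOTL2 (-0.38) and AXL (0.51). Against the mean of the other 5 replicated extracts the same test gave AXL 0.60, LATS2 -0.52, ANKRD1 -0.51, CCN2 -0.46, TEAD1 -0.37, AMOTL2 -0.31 and AJUBA 0.19.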

How the results depend on the processing

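No result reversed under any alternative. Of the 54 member comparisons of 500 with 20 µg/mL, 54 kept their side of the threshold with RLE factors and with DESeq2, 53 with library totals and without the filter, and 52 with only the compared groups fitted. The genes called over all genes were 672 in Sibjeondaebo, 370 in Palmul, 275 in Poria, 214 in Ginseng and 37 in Atractylodis. With library totals these were 303, 162, 118, 101 and 21. With only the compared groups they were 268 in Sibjeondaebo, 108 in Poria, 13 in Ginseng and 19 in Atractylodis, and without the filter 209 in Atractylodis. Leaving out 1 library gave 381 to 503 in Sibjeondaebo, 106 to 169 in Palmul, 144 to 192 in Poria, 92 to 246 in Ginseng, 13 to 31 in Atractylodis and 5774 to 5940 in Glycyrrhizae (6568 with all).

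Members called in Poria went from 1 to 0 with library totals and with only the compared groups. At 500 µg/mL against the vehicle they went from 3 to 1 in Sibjeondaebo in both of these settings, and from 3 to 1 in Poria with library totals. Leaving out 1 library gave 0 to 1 members in Palmul and in Poria and 6 to 7 in Glycyrrhizae between 500 and 20 µg/mL. Against the vehicle it gave, at 20 µg/mL, 2 to 4 in Poria and in Ginseng, 1 to 2 in Palmul and 2 to 3 in Glycyrrhizae, and at 500 µg/mL 2 to 4 in Palmul, 2 to 3 in Poria, Ginseng and Sibjeondaebo, 3 to 4 in Atractylodis and 7 to 9 in Glycyrrhizae. Other pathway genes called fell from 6 to 3 in Sibjeondaebo, from 4 to 2 in Poria, from 1 to 0 in Ginseng and from 2 to 1 in Atractylodis with only the compared groups. They were 2 in Poria and 3 in Ginseng without the filter and 1 in Atractylodis with library totals, and 4 to 6 in Sibjeondaebo, 1 to 2 in Palmul, 3 to 4 in Poria, 1 to 2 in Ginseng, 1 to 3 in Atractylodis and 46 to 51 in Glycyrrhizae with 1 library left out. Leaving out 1 library gave 5 to 7 members for Glycyrrhizae minus Ginseng and 6 to 7 for Glycyrrhizae minus the other 5. AJUBA in the latter was lost in 19 of 34 such fits, with edgeR adjusted p of 0.0505 to 0.24 there. The cause of these changes was not tested. Fits of the compared groups alone and fits with 1 library left out also hold fewer libraries.

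Same-numbered libraries had low correlations, -0.0994 to 0.228 over 34 pairs, and 0 of 12 comparisons had every value above 0.1. In Ginseng every such value was above the best one between different numbers, and in Sibjeondaebo most were below it. These values cannot decide whether some sets share a weak replicate effect. A replicate block gave 66 genes in Atractylodis and 2 other pathway genes in Ginseng, and AJUBA in Glycyrrhizae an edgeR adjusted p of 0.0281. A replicate block within set codes gave 1018 genes in Sibjeondaebo, 591 in Palmul, 474 in Poria, 343 in Ginseng and 93 in Atractylodis, 3 other pathway genes in Ginseng, and 2 members in Atractylodis (AMOTL2 0.0247, LATS2 0.032). In Glycyrrhizae AJUBA (0.0116) and YAP1 (0.0494) then passed. The AJUBA difference between Glycyrrhizae and Ginseng passed with either block (0.0351, and 0.0156 within set codes), and AMOTL2 in Atractylodis at 500 µg/mL against the vehicle passed with the replicate block (0.0347).

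Library totals raised the share of higher calls against the vehicle at 20 µg/mL from 55.8% to 81.4% in Poria, from 56.5% to 73.2% in Palmul and from 52.3% to 63.4% in Sibjeondaebo, and at 500 µg/mL from 52.9% to 75.7% in Atractylodis and from 60.7% to 76.1% in Poria. Between 500 and 20 µg/mL they lowered it from 45.8% to 33.7% in Ginseng. Likeness to the 27 nearest genes had a median of 0.721 by Spearman's rho. CCN1 and CCN2 had the fewest counts and the widest SEs of the members.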
